A study of Mus musculus with 108 samples.

Results

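Synaptonemal complex genes were examined in cultured mouse spermatogonial stem cells, a stage before meiosis. The set held 10 genes, taken by symbol from the 26218 genes of the expression table: Sycp2, Sycp3, Hormad1, Hormad2, Sycp1, Syce1, Syce2, Syce3, Tex12 and Tex11. All 10 were present. They were described by their level, by the share of cells that held them and by their co-expression in single cells of 4 culture lines. Germline stem cell-like cells (GSCLCs) are spermatogonial stem cell cultures made from pluripotent stem cells by way of testes rebuilt in culture, and germline stem cells (GSCs) are the same kind of culture taken from testes. The GSCLC lines were GSCLC1 with 30 cells and GSCLC4 with 24 cells, the second derived from reconstituted testes held at 34 °C for 3 weeks. The GSC lines were GSC1 with 30 cells and GSC2 with 24 cells, the second from separate testes of postnatal day 7. All 4 lines had the background 129/SvJcl x C57BL/6 and the reporter AcrAct_EGFP, and were grown in StemPro-34 medium with GDNF, bFGF, LIF, EGF and 1% FBS. SC3-seq, which reads the 3′ ends of polyadenylated RNA, was applied to each cell on its own. Each type was represented by 2 lines, and no further cultures of a line were labelled.

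The synaptonemal complex is the protein zipper that joins homologous chromosomes in the prophase of meiosis. SYCP2, SYCP3 and the HORMA domain proteins HORMAD1 and HORMAD2 coat the axis of each chromosome, SYCP1 spans the gap between the paired axes, and SYCE1, SYCE2, SYCE3 and TEX12 build the central element where SYCP1 molecules from both sides meet. TEX11, encoded on the X chromosome, acts with the assembled complex in crossing over. Spermatogonia divide by mitosis and do not build the complex. In cells outside the germ line many such genes are held silent by DNA methylation and by a Polycomb complex that carries E2F6, MGA and MAX, proteins that bind E2F sites and the E-box.

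Promoters of 9 of the 10 genes were present in the RefSeq table of promoter sequences (GRCm38.p6), as 12 windows of 300 bases. Each window begins 250 bases before a transcript start and ends 50 bases after it. The stretches shown are 190 bases long and written 5′ to 3′ along the gene. Capitals mark 2 motifs searched on both strands. One is the E-box CACGTG, which reads the same on both strands. The other is the E2F core TCCCGC, marked in either orientation. The first 5 genes carry both motifs, and Syce1 is shown as a member of the same complex that carries neither.
Sycp3 (chr10:88459417-88459606, plus strand): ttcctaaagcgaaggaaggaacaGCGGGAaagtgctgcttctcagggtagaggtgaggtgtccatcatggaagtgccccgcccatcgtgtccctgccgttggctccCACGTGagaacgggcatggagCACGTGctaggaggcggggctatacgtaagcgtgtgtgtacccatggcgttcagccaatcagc
Hormad1 (chr3:95559507-95559696, plus strand): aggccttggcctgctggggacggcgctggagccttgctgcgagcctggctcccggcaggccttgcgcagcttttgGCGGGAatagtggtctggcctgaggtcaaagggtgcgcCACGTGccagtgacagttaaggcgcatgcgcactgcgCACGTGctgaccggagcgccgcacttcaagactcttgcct
Sycp1 (chr3:102936081-102936270, minus strand): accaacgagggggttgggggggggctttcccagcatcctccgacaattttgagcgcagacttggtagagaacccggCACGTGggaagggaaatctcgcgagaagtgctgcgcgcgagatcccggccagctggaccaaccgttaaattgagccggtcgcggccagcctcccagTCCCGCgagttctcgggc
Syce2 (chr8:84872088-84872277, plus strand): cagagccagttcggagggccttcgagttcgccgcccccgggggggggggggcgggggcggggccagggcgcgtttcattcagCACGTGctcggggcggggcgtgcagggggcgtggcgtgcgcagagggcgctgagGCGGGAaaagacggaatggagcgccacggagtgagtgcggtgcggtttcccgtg
Tex12 (chr9:50561249-50561438, minus strand): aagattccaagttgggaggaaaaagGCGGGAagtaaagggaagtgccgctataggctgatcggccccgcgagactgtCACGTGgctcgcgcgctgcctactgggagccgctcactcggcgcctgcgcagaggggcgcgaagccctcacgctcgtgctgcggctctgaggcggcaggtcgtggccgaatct
Syce1 (chr7:140787835-140788024, minus strand): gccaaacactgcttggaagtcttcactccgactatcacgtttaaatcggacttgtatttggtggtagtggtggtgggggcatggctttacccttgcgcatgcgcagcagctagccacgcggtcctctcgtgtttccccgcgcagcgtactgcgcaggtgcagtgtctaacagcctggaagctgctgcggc
CACGTG was found in 5 of the 9 member genes (55.6%), against 7.15% of all 32851 windows. TCCCGC was found in 5 of 9 as well, against 20.0% of windows, and both motifs together stood in the same 5 genes, against 1.99% of windows. The sequence CNCCTCAG, a motif bound by STRA8 in mouse germ cells, occurred in Hormad2, Syce2, Sycp1 and Tex12, against 7.94% of windows. A gene was counted if any of its windows matched, whereas the shares over all windows are by window. Counted by window, CACGTG was found in 6 of the 12 member windows, TCCCGC in 7, both in 6 and CNCCTCAG in 4. The ratio of observed to expected CpG dinucleotides was above the median of all windows in 10 of 12 member windows. A match of letters is a description and does not show a bound site.

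The members are spread over the genome (RefSeq, GRCm38.p6). Sycp1 lies on chromosome 3 (102818499 to 102936100) and Hormad1 on the same chromosome (95559677 to 95587863). Sycp2 lies on chromosome 2 (178345295 to 178407776), Hormad2 on chromosome 11 (4345801 to 4441198), Syce1 on chromosome 7 (140777229 to 140787854) and Syce3 on chromosome 15 (89390174 to 89410503). Tex11 lies on the X chromosome (100838648 to 101059639), and the other 3 are given with the genes that overlap them.

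Markers were set against the label of germ cells before meiosis. Dazl, Ddx4 and Mael, RNA-binding and piRNA pathway genes of germ cells, reached at least 5 RPM (reads scaled to the size of the library) in every cell of the 4 lines. Other germ cell markers, chosen after their values were seen, did not. Ddx25 reached 5 RPM in 86.7% and 91.7% of GSCLC1 and GSCLC4 cells and in 70% and 87.5% of GSC1 and GSC2 cells. Dnd1 did so in 93.3% and 95.8% of GSCLC1 and GSCLC4 cells and in 96.7% and 91.7% of GSC1 and GSC2 cells. Spo11, which makes the breaks that start meiotic recombination, averaged 0.016 and 1.90 RPM in GSCLC1 and GSCLC4 cells, against 0.871 and 1.38 RPM in GSC1 and GSC2 cells. The spermatid and late spermatocyte gene Pgk2 reached 5 RPM in 0 cells of any line, which allows a share of up to 10% in lines of 30 cells and 12.5% in lines of 24. Other spermatocyte genes were found in part of the cells: Hspa2 reached 5 RPM in 26.7% and 41.7% of GSCLC1 and GSCLC4 cells and in 30% and 8.33% of GSC1 and GSC2 cells. Ldhc did so in 30% and 29.2% of GSCLC1 and GSCLC4 cells and in 10% and 16.7% of GSC1 and GSC2 cells. Cells had an estimated 2.00 to 6.04 M reads, and the line medians were 3.19 and 3.26 M in GSCLC1 and GSCLC4, against 3.71 and 4.30 M in GSC1 and GSC2. A single GSC1 cell was far from its line, holding 5748 detected genes against a line median of 8791 and 55032 RPM of fibroblast and feeder genes against a line median of 312. The same cell held 1276 RPM of germ cell genes, against a line median of 6055 RPM. In it 9 members lay between 0 and 0.989 RPM (at most 3 reads), whereas Syce2 held 165.9 RPM (503 reads), and the GSC1 values of the members that change an order or a count are also given without it. Titles number the GSC1 cells in 2 runs, 65 to 80 and 129 to 150, and each run was also used by itself.

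Transcripts of all 10 genes were present in all 4 lines, at line means from 23.7 to 502 RPM. RPM of this 3′-end method does not scale with transcript length, so levels of different genes can be set side by side on that scale. Syce2 had the highest mean in every line and Hormad2 the lowest.

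**Figure D1:**
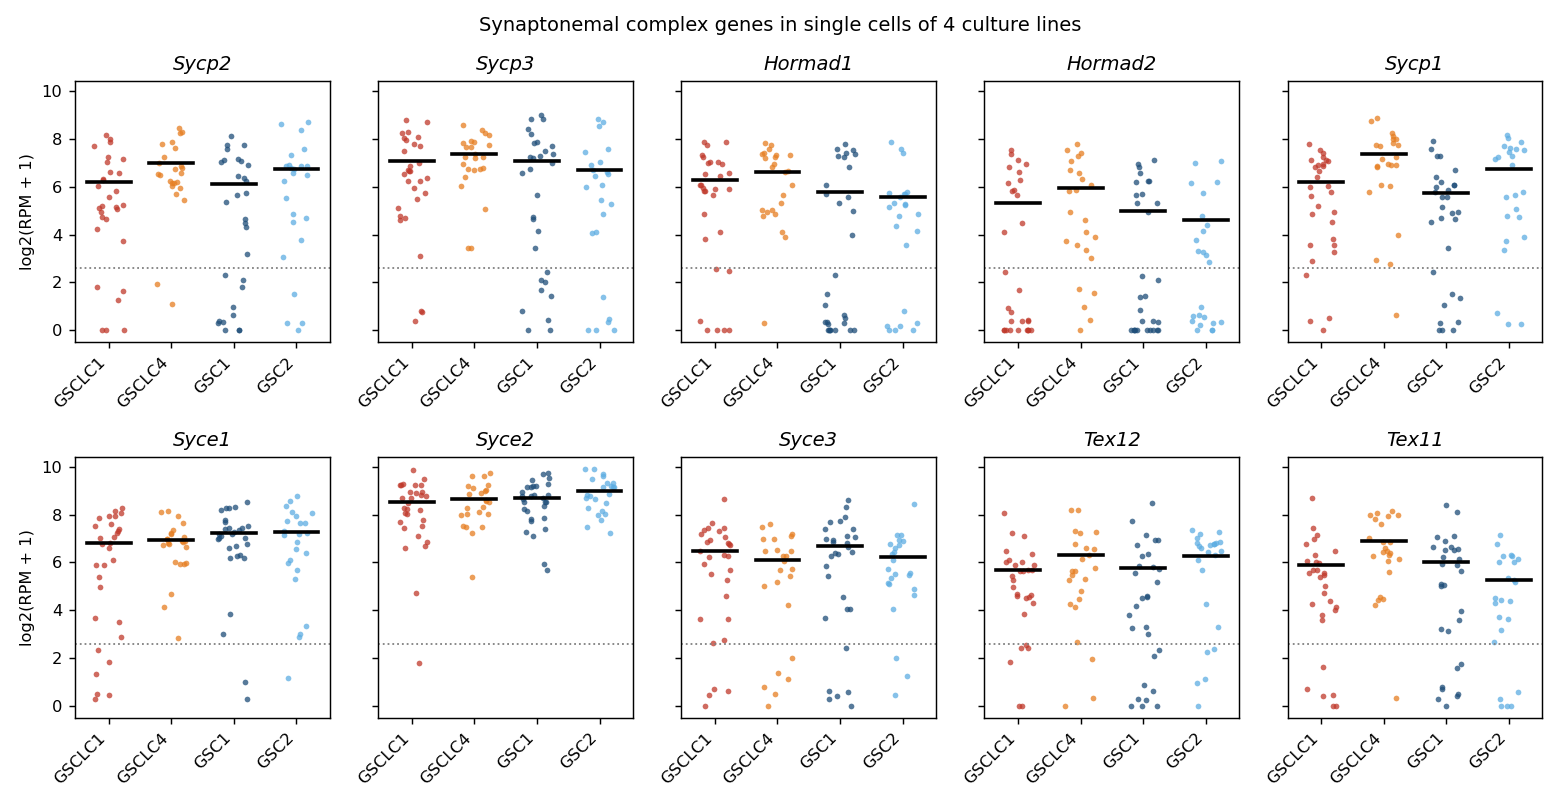
Level of each gene in single cells, as log2(RPM + 1), by culture line; points are cells, black bars are the line mean on the same scale, and the dotted line marks 5 RPM. Cells with Syce2 lie close together near 8 to 9, whereas Hormad1 and Hormad2 in GSC1 split into cells near 0 and cells near 6. In GSCLC4 only 1 of 24 cells for Hormad1 and 3 of 24 for Hormad2 lie under 1 RPM.

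Both axial element genes had their highest line mean in GSCLC4. Sycp3, the filament-forming core of the axis, had a lowest, median and highest value of 0.315, 95.8 and 441 RPM in GSCLC1 cells and of 9.72, 151.1 and 386 RPM in GSCLC4 cells. The same 3 values were 0, 100.95 and 506 RPM in GSC1 cells and 0, 65.03 and 451 RPM in GSC2 cells. All 4 lines covered much the same range over cells, and GSCLC4 was the only line in which every cell held at least 5 RPM. The line means of 133.7 and 165.9 RPM in GSCLC1 and GSCLC4 lay above those of 133.1 and 104.5 RPM in GSC1 and GSC2, with GSCLC1 and GSC1 almost equal (log2 difference 0.33 ± 0.24 SE, adjusted p = 0.732). Without the outlying cell GSC1 averaged 137.7 RPM, above GSCLC1, so the types then overlapped. The difference of Sycp3 was 0.31 without that cell, 0.16 without GSC2, 0.18 without GSCLC4 and 1.41 from means of log2 values over cells. Sycp2, the partner of SYCP3 on the axis, averaged 73.6 and 125.7 RPM in GSCLC1 and GSCLC4, against 67.7 and 107.3 RPM in GSC1 and GSC2. Its line types overlapped, since the mean of GSC2 lay above that of GSCLC1 (log2 0.17 ± 0.32, adjusted p = 0.932), and the difference was negative without GSCLC4 (-0.21) or without GSC1 (-0.16). Single cells held up to 287 and 349 RPM of Sycp2 in GSCLC1 and GSCLC4, and up to 276 and 417 RPM in GSC1 and GSC2.

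The HORMA domain genes had the 2 largest positive differences of the set. Hormad1, needed for break formation and for the surveillance of unpaired axes, had median values of 60.1 and 99.6 RPM in GSCLC1 and GSCLC4 cells, against 2.90 and 31.3 RPM in GSC1 and GSC2 cells. The highest cells were alike at 235 and 229 RPM in GSCLC1 and GSCLC4 and 219 and 237 RPM in GSC1 and GSC2, and each line held cells at or below 0.243 RPM. The line means were 77.2 and 98.3 RPM in GSCLC lines, against 53.7 and 46.1 RPM in GSC lines, and did not overlap (log2 0.80 ± 0.29, unadjusted p = 0.0172, limma adjusted p = 0.487). The difference of Hormad1 was 1.90 from means of log2 values over cells and 2.80 from medians. Hormad2, which works in the same surveillance, had medians of 1.55 and 26.5 RPM in GSCLC1 and GSCLC4 cells, against 1.64 and 6.93 RPM in GSC1 and GSC2 cells. The GSCLC1 median thus sat at the level of GSC1. Its means of 38.99 and 60.3 RPM in GSCLC lines lay above 30.5 and 23.7 RPM in GSC lines (log2 0.83 ± 0.38, unadjusted p = 0.0488, limma adjusted p = 0.562), with a difference of 0.52 without GSCLC4. Of the values of Hormad1 above 0, 47.9% were not whole reads within 0.05 read, so its level is uncertain where reads were divided between similar sequences.

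Sycp1, the transverse filament, was highest in GSCLC4 and next in GSC2. Its lowest, median and highest values were 0, 58.3 and 221 RPM in GSCLC1 cells and 0.530, 133.8 and 464 RPM in GSCLC4 cells. GSC1 cells gave 0, 31.9 and 243 RPM, and GSC2 cells 0.205, 86.8 and 290.1 RPM. The order of the means was GSCLC4 with 164.7 RPM, GSC2 with 107.5 RPM, GSCLC1 with 72.99 RPM and GSC1 with 52.9 RPM, so the types overlapped (log2 0.53 ± 0.40, adjusted p = 0.752). The difference rested on GSCLC4 and was -0.048 without that line.

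Among the central element genes Syce2 was the most even over cells. Syce2, which forms fibres together with TEX12, had lowest, median and highest values of 2.50, 336 and 942 RPM in GSCLC1 cells and 40.6, 371 and 866 RPM in GSCLC4 cells. GSC1 cells gave 50.0, 412 and 851 RPM and GSC2 cells 147.6, 454 and 975 RPM. Nearly every cell of every line was high. The line means of 365 and 404 RPM in GSCLC1 and GSCLC4 lay below 414 and 502 RPM in GSC1 and GSC2 but did not pass the test (log2 -0.25 ± 0.17, adjusted p = 0.727), and the difference was -0.11 without GSC2 and -0.39 without GSC1. Syce1, which binds SYCP1 at the central element, averaged 110.6 and 121.6 RPM in GSCLC1 and GSCLC4, against 149.6 and 153.03 RPM in GSC1 and GSC2, the second member whose GSCLC lines both lay lower (log2 -0.38 ± 0.22, adjusted p = 0.660). Syce3, an early loader of the central element, averaged 89.4 and 67.5 RPM in GSCLC1 and GSCLC4, against 101.5 and 74.6 RPM in GSC1 and GSC2 (log2 -0.16 ± 0.28, adjusted p = 0.928). The GSC1 mean of Syce3 joined 57.7 RPM over the 13 cells numbered under 129 with 134.98 RPM over the 17 others. Tex12 averaged 50.3 and 77.5 RPM in GSCLC1 and GSCLC4, against 53.2 and 77.3 RPM in GSC1 and GSC2 (log2 -0.04 ± 0.33, adjusted p = 0.989), and 74.5 and 36.9 RPM in those sets of GSC1 cells. Tex12 was almost equal in GSCLC4 and GSC2, and the differences of Syce3 and Tex12 changed sign when single lines or parts of GSC1 were left out.

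Tex11, the crossover gene, had medians of 42.5 and 87.5 RPM in GSCLC1 and GSCLC4 cells, against 41.2 and 21.1 RPM in GSC1 and GSC2 cells. Its means were 58.4 and 118.7 RPM in GSCLC lines, against 64.5 and 38.0 RPM in GSC lines (log2 0.74 ± 0.38, adjusted p = 0.613). The difference was 0.24 without GSCLC4 and 0.37 without GSC2, and 1.24 without GSCLC1 and 1.11 without GSC1. GSCLC1 and GSC1 lay close together, and GSCLC4 and GSC2 formed the ends of the order.

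Set side by side, 0 of the 10 genes passed the threshold between line types (limma adjusted p from 0.487 to 0.989), where 0.076% of the 10526 tested genes passed it. At an unadjusted p under 0.05 there were 2 members, Hormad1 and Hormad2, and 8.83% of all tested genes. That count was 1 without the outlying cell, 0 with spike-in scaling or without GSCLC4, 3 without GSC1 and 4 without GSCLC1. The members had a median log2 difference of 0.25, against 0.04 over all tested genes. Of their values 6 were positive and 4 negative, where 53.8% of all tested genes were positive. The axis, transverse filament and crossover genes were positive and the 4 central element genes negative, but Sycp1, Sycp2, Syce3 and Tex12 changed sign under some alternatives. In 5 members the GSCLC and GSC line means did not overlap, 3 above (Sycp3, Hormad1, Hormad2) and 2 below (Syce1, Syce2), where the share over all tested genes was 39.3%. Without the outlying cell the count was 4, since Sycp3 overlapped, against 39.1% of tested genes. With GSC1 cells numbered 129 or above alone it was also 4, since Syce2 overlapped, against 38.0% of tested genes. With those numbered under 129 alone it was 4 as well, since Sycp3 overlapped, against 38.8% of tested genes.

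**Figure D2:**
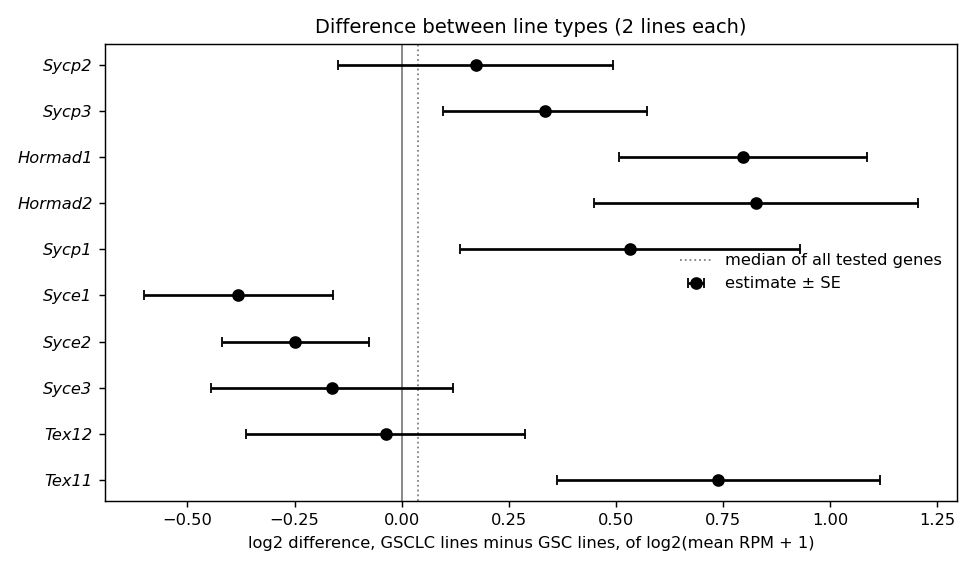
Difference between GSCLC and GSC lines for each gene on the log2(mean RPM + 1) scale, with points for the estimate, bars for its standard error (2 lines each) and a dotted line for the median of all tested genes. The HORMA domain genes and Tex11 lie between 0.74 and 0.83, and the 4 central element genes lie below 0.

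GSCLC4 stood highest for most members. It had the highest mean of the 4 lines for 7 of 10 members, where it was highest for 31.2% of all tested genes, and it lay above GSCLC1 for 9 of 10 members, where this held for 55.04% of tested genes. Syce3 was the exception. GSC2 lay above GSC1 for 5 of 10 members, against 53.3% of tested genes. GSCLC4 also had the most detected genes per cell, with a median of 9866 against 8607 in GSCLC1, and 8791 and 9182 in GSC1 and GSC2, and the order held at equal depth (9353 and 8082 in the GSCLC lines, 8241 and 8520 in the GSC lines). The part of this in the member levels was not tested. No further cultures of a line were labelled, so the differences between lines of a type have no replicate.

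The share of cells with each transcript was counted at 5 RPM or more. The outlying GSC1 cell is included, where Syce2 passed this level and the other 9 members did not. The median share over members was 80% in GSCLC1 and 95.8% in GSCLC4, against 70% in GSC1 and 81.3% in GSC2. Syce2 was found in 29 of 30 GSCLC1 cells and 24 of 24 GSCLC4 cells, and in all 30 GSC1 and 24 GSC2 cells. Hormad2 was the rarest in every line but GSCLC4, where Syce3 was (18 of 24 cells). It was found in 13 of 30 GSCLC1 cells (43.3%, exact binomial 95% interval 25.5 to 62.6%) and 19 of 24 GSCLC4 cells (79.2%, 57.8 to 92.9%), against 12 of 30 GSC1 cells (40%, 22.7 to 59.4%) and 13 of 24 GSC2 cells (54.2%, 32.8 to 74.4%). Hormad1 was present in 23 of 30 GSCLC1 cells (76.7%, 57.7 to 90.1%) and 23 of 24 GSCLC4 cells (95.8%, 78.9 to 99.9%), against 14 of 30 GSC1 cells (46.7%, 28.3 to 65.7%) and 17 of 24 GSC2 cells (70.8%, 48.9 to 87.4%). Sycp3 was present in 27 of 30 cells of GSCLC1 and 24 of 24 of GSCLC4, and in 21 of 30 cells of GSC1 and 18 of 24 of GSC2. Intervals cover counting error over cells only, and no further cultures of a line were labelled. The intervals therefore do not test a difference between lines or types.

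**Figure D3:**
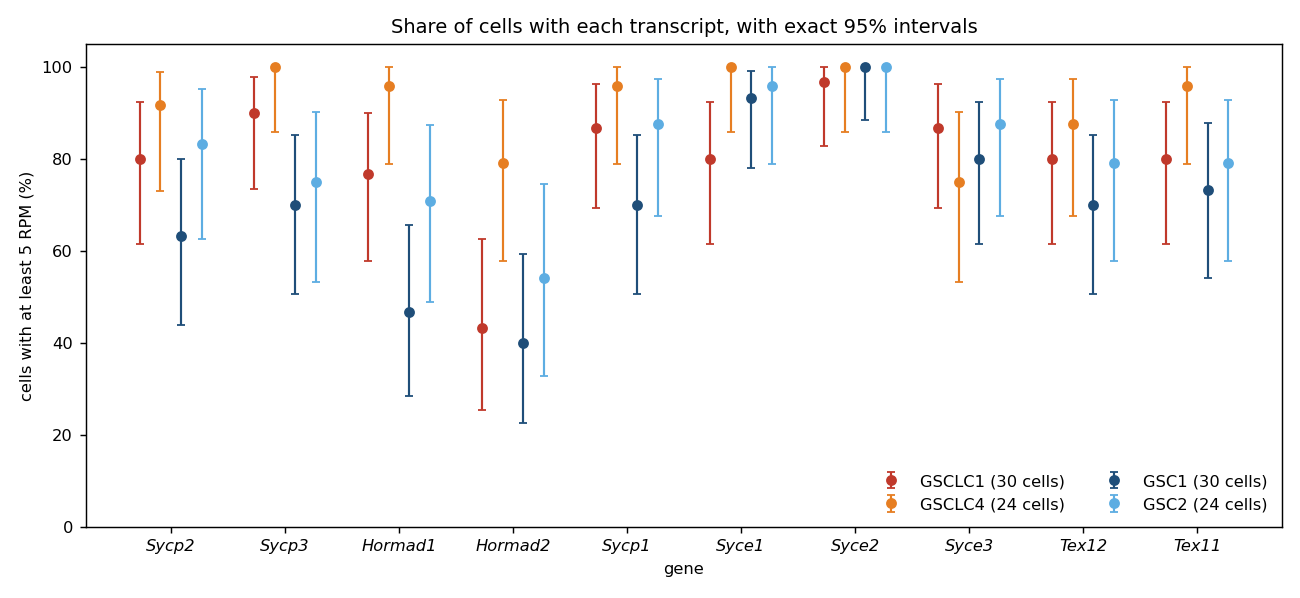
Share of cells with at least 5 RPM of each gene in each culture line, with exact binomial 95% intervals. Syce2 lies between 96.7% and 100% in every line, and Hormad2 lies lowest except in GSCLC4, between 40% and 79.2%.

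Most values over cells lay at 20 RPM or more. Of the 1080 values of 10 genes over all cells, 14.4% were under 1 RPM, 13.9% lay from 1 to under 20 RPM and 71.8% were at 20 RPM or more, against 33.6%, 17.1% and 49.4% over all tested genes. All 10 members had means over 20 RPM in every line, whereas the tested set also takes in genes with lower levels. Hormad1 in GSC1 was divided most evenly, with 13 cells under 1 RPM, 4 between and 13 at 20 RPM or more. Hormad2 in GSCLC1 had 15 cells under 1 RPM, 3 between and 12 at 20 RPM or more. A single cell's value near 0 can also come from RNA that was not captured.

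Cell-to-cell spread also set Syce2 and Hormad2 apart. The coefficient of variation was lowest for Syce2 in all 4 lines, at 61.7% and 53.9% in GSCLC1 and GSCLC4 against 51.9% and 47.2% in GSC1 and GSC2. It was highest for Hormad2 in GSCLC1 (143.2%), GSCLC4 (112.0%) and GSC2 (165.98%), and for Tex12 in GSC1 (146.8%). The median over members was 94.6% and 76.1% in GSCLC1 and GSCLC4 and 117.3% and 100.2% in GSC1 and GSC2, below the medians of all tested genes in the same lines (132.9%, 108.7%, 137.98% and 124.5%). This measure falls with the level of a gene, and tested genes with lower levels enter the second set of medians.

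Many cells held transcripts of nearly the whole complex. A cell had a median of 8 of the 10 members at 5 RPM or more in GSCLC1 and 9.5 in GSCLC4, against 7.5 in GSC1 and 8.5 in GSC2. All 10 were found together in 4 of 30 GSCLC1 cells (13.3%) and 12 of 24 GSCLC4 cells (50.0%), against 0 of 30 GSC1 cells (which allows a share of up to 10%) and 3 of 24 GSC2 cells (12.5%). At least 8 were found in 20 of 30 GSCLC1 and 22 of 24 GSCLC4 cells and in 15 of 30 GSC1 and 18 of 24 GSC2 cells. The members summed to a median of 972 and 1455 RPM per cell in GSCLC1 and GSCLC4, and of 1104 and 1287 RPM in GSC1 and GSC2. GSCLC4, with the most members per cell, was also the line with the most detected genes, and the part of detection in this was not tested.

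Levels of the members were weakly related over cells. Over the 45 pairs of members, the median Spearman correlation over the cells of a line was 0.02 in GSCLC1 and 0.13 in GSCLC4, against 0.03 in GSC1 and 0.07 in GSC2. The medians over all pairs of tested genes were 0.0087, 0.016, 0.027 and 0.011 in the same lines. Correlations above 0.3 made up 2, 10, 5 and 3 pairs, or 4.44%, 22.2%, 11.1% and 6.67%, where 6.16%, 9.32%, 7.41% and 8.73% of all tested pairs exceeded it. GSCLC4 had the highest median and the most pairs above 0.3. Without the outlying cell the GSC1 median was -0.04, and it was -0.06 and 0.12 in the GSC1 runs of lower and higher serial numbers.

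Hormad1 and Tex12 formed the pair with the highest mean correlation. They gave 0.56 and 0.57 in GSCLC1 and GSCLC4, against -0.31 and 0.50 in GSC1 and GSC2, and -0.41 in GSC1 without the outlying cell. Sycp1 and Sycp3 gave -0.03 and 0.61 in GSCLC1 and GSCLC4, and 0.28 and 0.18 in GSC1 and GSC2. Syce2 and Tex12, whose proteins assemble with each other, gave 0.14 and 0.57 in GSCLC1 and GSCLC4, against -0.22 and 0.09 in GSC1 and GSC2. Sycp2 and Sycp3, the axial partners, gave -0.04 and 0.13 in GSCLC lines and 0.33 and 0.04 in GSC lines. Over the 8 pairs that share a role the medians were 0.03 and 0.16 in the GSCLC lines and -0.05 and 0.07 in the GSC lines. These were close to the medians over all 45 pairs, and below them in GSC1.

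**Figure D4:**
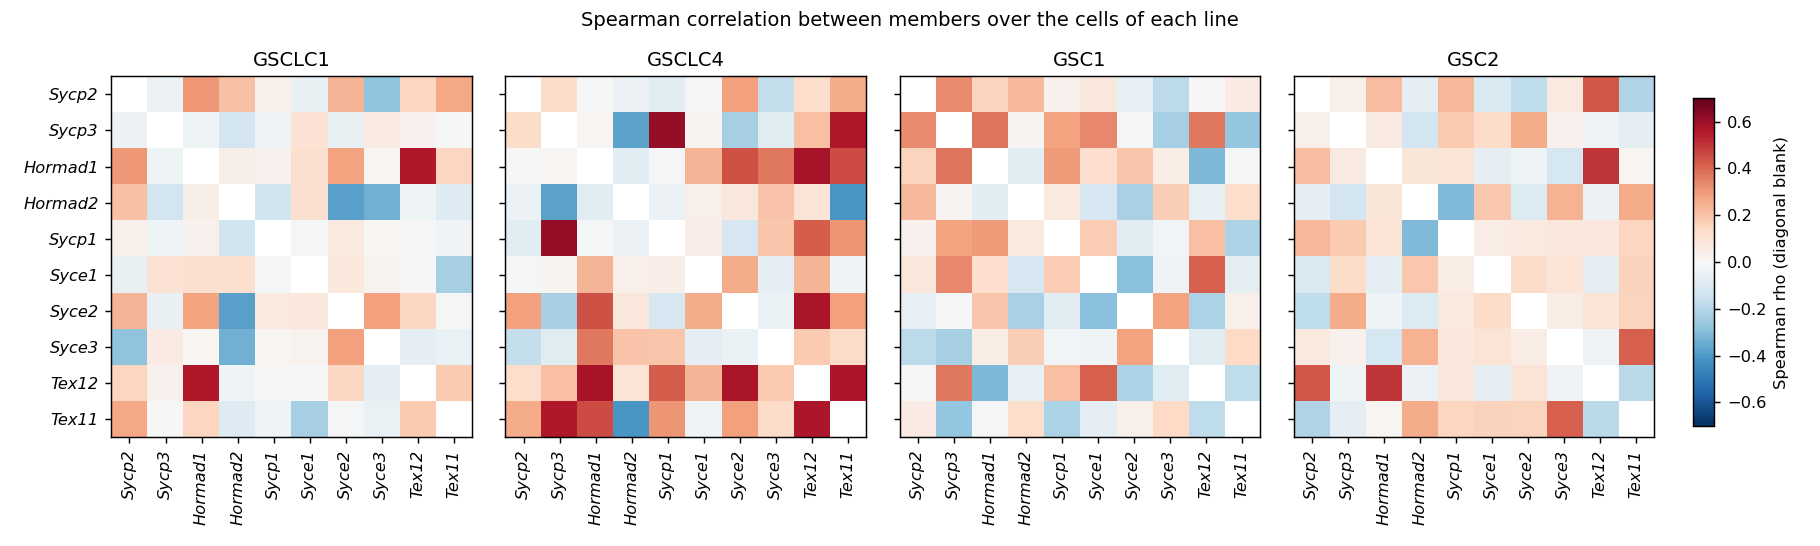
Spearman correlation between every pair of genes over the cells of GSCLC1, GSCLC4, GSC1 and GSC2 (30, 24, 30 and 24 cells), with genes ordered by role. Most squares are pale, and GSCLC4 holds 10 of the 45 pairs above 0.3.

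For Syce2, Tex12 and Hormad1 the genes most alike over cells included genes of DNA replication. Likeness was the mean over the 4 lines of the Spearman correlation within a line, taken over every other tested gene. Syce2 was most like Rrm1, a subunit of ribonucleotide reductase (mean 0.54, with 0.40 and 0.80 in GSCLC1 and GSCLC4 and 0.29 and 0.66 in GSC1 and GSC2), followed by the histone genes Hist1h2ap (0.52) and Hist1h2ao (0.50). Tex12 was most like Cops7a (0.48), the replication clamp Pcna (0.46) and the single-strand binding subunit Rpa3 (0.45). Hormad1 was most like the primase Prim1 (0.41), the E2F partner Tfdp1 (0.40) and Hist1h2ap (0.39). Histone genes have near-identical copies, and their levels are uncertain.

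The other members had other neighbours. Tex11 was most like Hnrnpa2b1 (0.47) and the tubulins Tuba3b (0.45) and Tubb4b (0.45). Sycp1 was most like Ttc33 (0.45), AW554918 (0.40) and Syn2 (0.36), and Sycp3 like Lsm14a (0.40), Rprd2 (0.40) and Wdr59 (0.38). Sycp2 was most like Epn1 (0.36), Ftsjd2 (0.36) and LOC100861696 (0.35), and Hormad2 like Ahsa1 (0.36), Marcksl1 (0.33) and Zmiz2 (0.32). Syce1 was most like Il11ra1 (0.39), Pbx4 (0.37) and Mthfd2 (0.36), and Syce3 like Brd3 (0.44), Fam54b (0.35) and G3bp1 (0.35). Each is the top of a search over all tested genes, so high values were picked.

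Widely used lists of S phase and of G2 and M phase genes, taken up after those neighbours had been seen, were most alike, for S phase, to the same 3 members. Summed with equal weight for each of its 42 genes, the S phase list correlated with Syce2 at 0.24 and 0.62 over GSCLC1 and GSCLC4 cells and at 0.39 and 0.54 over GSC1 and GSC2 cells. Tex12 gave 0.26 and 0.64 in GSCLC lines and 0.19 and 0.53 in GSC lines, and Hormad1 gave 0.27 and 0.62 in GSCLC lines and 0.29 and 0.27 in GSC lines. Their means were 0.45, 0.40 and 0.36, and the median over the other tested genes was 0.03. Rrm1, Pcna and Prim1, already given among the nearest genes of these members, belong to the S phase list, so the values restate that likeness in part. Without the outlying cell the GSC1 values were 0.35, 0.11 and 0.23 for Syce2, Tex12 and Hormad1.

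Syce1 followed with a mean of 0.26, and was positive in all 4 lines as well. Its GSC1 value was 0.11, and 0.02 without the outlying cell. Sycp2, Sycp3 and Tex11 averaged 0.00, 0.02 and 0.02 against the S phase list, and Hormad2 averaged -0.05. Against the 52 genes of G2 and M phase Tex11 gave 0.11 and 0.71 in GSCLC1 and GSCLC4 and 0.42 and 0.11 in GSC1 and GSC2. Its mean of 0.34 was close to that of Syce2 (0.33), and Hormad1 (0.27) and Tex12 (0.26) followed. By their means, the members highest against S phase were thus also high against G2 and M phase, but the lines differed. Tex12 gave 0.09 and 0.72 in GSCLC1 and GSCLC4, against -0.18 and 0.42 in GSC1 and GSC2, and -0.30 in GSC1 without the outlying cell. Hormad1 gave 0.21 and 0.60 in GSCLC lines and 0.18 and 0.10 in GSC lines. Tubb4b, a nearest gene of Tex11, belongs to the second list. The 3 members highest against S phase all carry both promoter motifs, but so do Sycp1 and Sycp3, with means of 0.09 and 0.02.

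**Figure D5:**
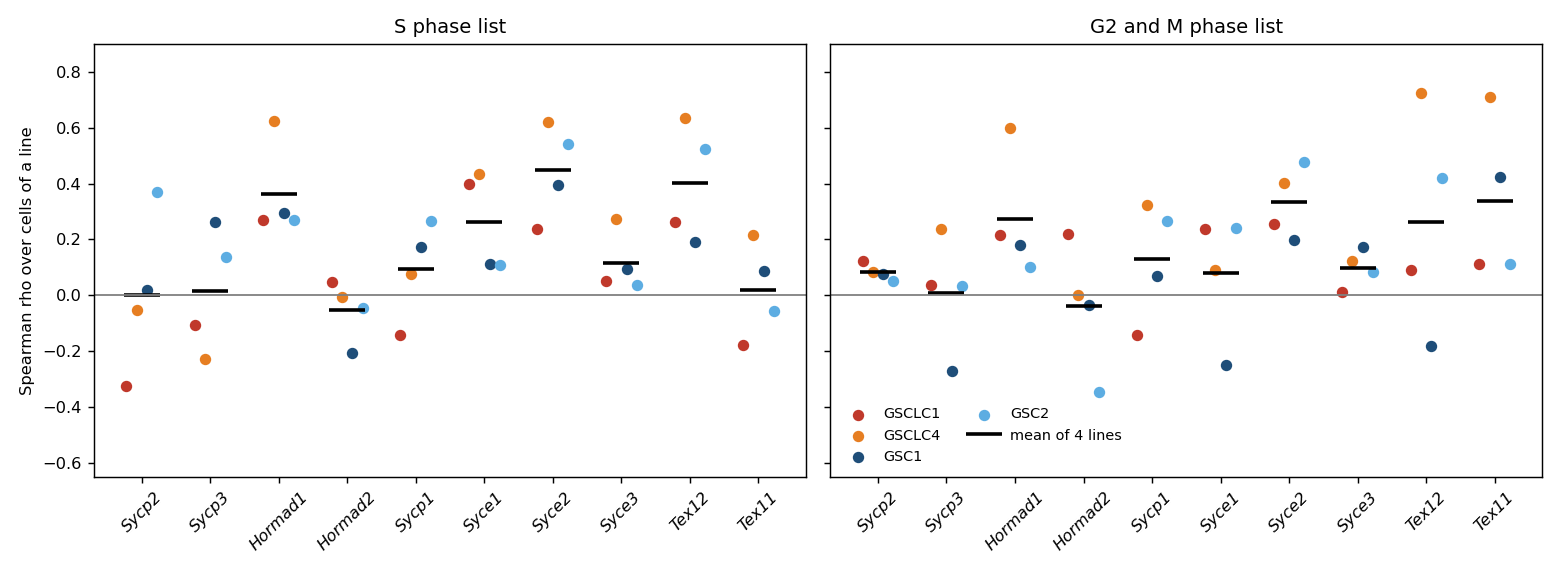
Spearman correlation of each gene with the summed S phase list (left) and the G2 and M phase list (right) over the cells of each line; points are lines and black bars the mean of 4 lines. Hormad1, Syce1, Syce2, Syce3 and Tex12 lie above 0 in all 4 lines on the left, and Tex12 and Tex11 reach 0.72 and 0.71 in GSCLC4 on the right.

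Measures of the libraries moved with some members. Against estimated depth, Hormad1 had a correlation of -0.56 over GSCLC1 cells and Sycp1 one of -0.58 over GSCLC4 cells, with 0.12 for Hormad1 in GSCLC4 and 0.05 for Sycp1 in GSCLC1. Against the number of detected genes, Syce3 gave 0.61 in GSCLC4 and Syce1 0.54 in GSC2. Against the spike-in signal, Sycp2 gave -0.43 in GSCLC1. Apart from the 0.12 and 0.05, these are the strongest values of each measure over all members and lines, so high values were picked. The part of depth in the co-expression was not tested. After thinning every cell to equal depth, the median over pairs was 0.01 and 0.11 in GSCLC1 and GSCLC4 and 0.03 and 0.04 in GSC1 and GSC2.

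At their 3′ ends 3 members overlap a gene on the other strand, and whether counting used strand is not given in the sources at hand, so reads of the paired genes cannot be told apart. Sycp3 (chromosome 10, 88459587 to 88473236) overlaps Chpt1, which averaged 44.4 and 57.1 RPM in GSCLC1 and GSCLC4 against 22.6 and 26.2 RPM in GSC1 and GSC2. Within lines Sycp3 and Chpt1 correlated at 0.25 and 0.31 in GSCLC1 and GSCLC4 and at 0.23 and 0.50 in GSC1 and GSC2. Syce2 (chromosome 8, 84872111 to 84887446) overlaps Gcdh, at 5.24 and 26.5 RPM in GSCLC1 and GSCLC4 against 0.083 and 7.16 RPM in GSC1 and GSC2. Tex12 (chromosome 9, 50557148 to 50561268) overlaps Il18, whose line means were at most 1.86 RPM. Within lines Syce2 and Gcdh correlated at 0.10 and -0.49 in GSCLC1 and GSCLC4 and at 0.18 and 0.11 in GSC1 and GSC2. Gcdh had a median of 0 and a highest value of 1.06 RPM over GSC1 cells. It was also at 0 in the outlying GSC1 cell that held 503 reads of Syce2. The part of the overlapping genes in the member levels was not tested.

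Other genes of the meiotic chromosome axis were present beside the members. Of 15 further synaptonemal complex and crossover genes with values, 11 were tested and 0 passed. The central element gene 4930447C04Rik, known as Six6os1 and chosen after its values were seen, averaged 71.5 and 140.9 RPM in GSCLC1 and GSCLC4, against 105.6 and 131.3 RPM in GSC1 and GSC2. The largest differences of that list were those of Msh4 (log2 -1.04), Hfm1 (1.00) and Msh5 (-0.89), crossover genes at line means of at most 26.5 RPM. Of the meiotic cohesin subunits, Smc1b averaged 487 and 361 RPM in GSCLC lines against 355 and 473 RPM in GSC lines, and Stag3 averaged 204 and 218 RPM in GSCLC lines against 129.998 and 104.6 RPM in GSC lines (log2 0.85 ± 0.22, adjusted p = 0.308). Rec8 was present at a lower level, with 15.7 and 32.1 RPM in GSCLC lines and 9.13 and 4.63 RPM in GSC lines. The summed members correlated with Smc1b at 0.47 and 0.34 in GSCLC1 and GSCLC4 and at 0.25 and 0.33 in GSC1 and GSC2. With Stag3 they gave 0.46 and 0.40 in GSCLC1 and GSCLC4 and 0.25 and -0.20 in GSC1 and GSC2. With Rec8 they gave -0.28 and -0.07 in GSCLC1 and GSCLC4 and 0.18 and -0.44 in GSC1 and GSC2.

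Genes that start and regulate meiotic recombination were uneven. In the list of breaks and strand exchange 18 of 21 genes were in the table, 14 were tested and 0 passed. Of the 18, 8 had over 20 RPM in every line and 4 stayed under 5 RPM in every line. The line means of all 18 summed to 1184 and 1206 RPM in GSCLC1 and GSCLC4, against 1050 and 1251 RPM in GSC1 and GSC2. Prdm9, which places the breaks, reached at most 3.59 RPM in a line mean. Dmc1, the meiotic recombinase, averaged 21.02 and 13.7 RPM in GSCLC1 and GSCLC4 against 16.5 and 21.3 RPM in GSC1 and GSC2, and was found at 5 RPM in 33.3% to 43.3% of cells. Gm960 (log2 0.61) and Psmc3ip (0.54) had the largest differences there.

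Meiotic entry genes were uneven. Among the 9 with values, 4 had over 20 RPM in every line, and the line means of all 9 summed to 1032 and 789 RPM in GSCLC1 and GSCLC4, against 1043 and 871 RPM in GSC1 and GSC2. Stra8, the retinoic acid target that opens meiosis, averaged 8.82 and 3.36 RPM in GSCLC1 and GSCLC4 against 3.06 and 2.79 RPM in GSC1 and GSC2, under the limit for a test. Cells at 5 RPM or more of Stra8 numbered 6 of 30 in GSCLC1 and 5 of 24 in GSCLC4, against 4 of 30 in GSC1 and 1 of 24 in GSC2. Correlations of the summed members with Stra8 were 0.25 and 0.17 in GSCLC lines and 0.02 and -0.20 in GSC lines. Kit, a marker of differentiating spermatogonia, was at that level in 9 of the 30 cells of GSCLC1 and 7 of the 24 cells of GSCLC4, and in 5 of the 30 cells of GSC1 and 10 of the 24 cells of GSC2. Sohlh1 (log2 -1.58), Zglp1 (-1.53) and Dmrtb1 (1.33) differed most among the 8 tested entry genes, of which 0 passed.

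Synapsis checkpoint genes were led by H2afx (log2 0.91), Atrip (0.69) and Trip13 (0.33), with 0 of 9 tested members past the threshold, and telomere attachment genes by Cdk2 (-0.54), Spdya (-0.38) and Sun2 (0.38), with 0 of 4. Of 15 spermatocyte genes 6 stayed under 5 RPM in every line and 2 had over 20 RPM in every line. The line means of all 15 summed to 419 and 506 RPM in GSCLC1 and GSCLC4, against 473 and 477 RPM in GSC1 and GSC2. Hspa2 (log2 1.12), Tdrd5 (1.12) and Ldhc (1.01) differed most among the 8 tested, of which 0 passed. Repressors of meiotic genes were expressed: 21 of 23 had over 20 RPM in every line, and 0 of 22 tested passed. Among them L3mbtl2 (log2 0.88), Cbx1 (0.62) and E2f6 (-0.48) differed most, and E2f6, a subunit of a Polycomb complex, averaged 49.0 and 38.4 RPM in GSCLC1 and GSCLC4 against 66.9 and 55.4 RPM in GSC1 and GSC2.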

How the data were processed

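Single cells of 2 GSCLC and 2 GSC culture lines were profiled. The authors deposited 1 table of expression signal in RPM for 26218 genes and 92 spike-in RNAs. In the deposited signal the gene rows alone carry the scaling to library size, so spike-ins were left out of gene tests. The submitters' processing notes name TopHat 1.4.1, Cufflinks 2.2.0, cutadapt 1.3 and build mm10. How strand and reads with several matches were treated is not given in the sources at hand. The worth of 1 read, the most frequent value above 0 in a cell, gave the estimated depth. Between 85.6% and 92.4% of values in a cell were whole reads within 0.05 read, too few for a count model.

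Members and gene lists were chosen with earlier results of these data known. Cells of a line are not replicates, so the line was the unit: limma 3.58.1 in R 4.3.3 (eBayes with a mean-variance trend) was fitted to log2(mean RPM + 1) of the 4 lines, over the 10526 genes whose mean reached 5 RPM in 2 or more lines, with Benjamini-Hochberg adjustment and a threshold of 0.05. This scale understates changes of low genes. With 2 lines against 2 the p-values measure only the spread between these lines. The fit was tested on simulated data. Shares have exact Clopper-Pearson 95% intervals, and a count of 0 is given the limit of 3 cells. Spearman correlations over the cells of a line are descriptions without p. The outlying cell lay more than 5 median absolute deviations below its line in detected genes. All 10 members are named, as are their 3 most alike genes, up to 3 tested genes of each meiotic list by size of difference and a fixed set of meiotic and germ cell genes. A further gene that the rule would name is not reported here. Alternatives covered the pseudocount, filter, summary over cells, scaling, variance trend, left-out cells and left-out lines. Positions are those of RefSeq on GRCm38.p6, the assembly of mm10. Other tools were Python 3.11.15, numpy 2.4.6, scipy 1.17.1 and pandas 2.3.3.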

Additional observations from a re-analysis of the deposited data

How the results depend on the processing

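The count of members past the threshold was 0 under all 16 alternatives of the limma fit, with a lowest adjusted p of 0.233, from means of log2 values over cells. The count over all genes, 8 as reported, was 3 with a pseudocount of 0.5 RPM, 14 with one of 10 RPM, 23 with a filter at 20 RPM, 0 without a filter (1388 at an unadjusted p under 0.05), 22 from means of log2 values over cells, 0 from medians (706 unadjusted), 3 with median-ratio scaling, 34 with spike-in scaling, 0 without the variance trend (871 unadjusted), 5 with GSC1 cells of serial number under 129 and 2 with those of 129 or above. Leaving out 1 line gave 1 (without GSCLC4) to 22 (without GSC2), with 4 without GSCLC1, where the lone line of a type was assumed to vary like the others. All but 11 of 160 member differences kept their direction. The exceptions were Sycp1 without GSCLC4 (-0.048); Sycp2 without GSCLC4 (-0.21) and without GSC1 (-0.16); Syce3 from medians (0.067), with GSC1 serial numbers under 129 (0.24), without GSCLC4 (0.038) and without GSC1 (0.058); and Tex12 from means of log2 values (0.32), with GSC1 serial numbers of 129 or above (0.22), without GSCLC1 (0.27) and without GSC2 (0.23). The cause was not tested. Of 40 shares, 35 at 1 RPM and 37 at 20 RPM stayed within the interval of the value at 5 RPM, but 10 above 0 RPM and 18 above 0 after thinning did. No paired analysis was possible because the lines share no replicate numbers.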
